A study of Mus musculus with 11 samples.

Results

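Interferon-stimulated genes were followed in mouse mitral leaflets, the thin flaps of the left atrioventricular heart valve. The set held 9 genes, Ifit1, Ifit3, Irf7, Isg15, Usp18, Oasl2, Rsad2, Bst2 and Ifi44, chosen by name from 28591 gene symbols listed in either deposited table, and each table listed all 9. Both comparisons ask what happens to the leaflet transcriptome when a ciliary gene is lost or mutated. The Ift88 experiment compared 3 knockout libraries, from mice with an Nfatc1-driven Cre and floxed Ift88 (NfatC1Cre(+), Ift88f/f), with 2 wild-type libraries that carried the same Cre with intact Ift88 (NfatC1Cre(+); Ift88+/+). The Ift88 protein carries cargo along the cilium, and Nfatc1 is a gene of the endocardium and valve endothelium, so cells of the leaflet that never used that promoter would keep the floxed gene. The Dzip1 experiment compared 3 libraries heterozygous for the S14R allele (Dzip1S14R/+) with 3 wild-type libraries (Dzip1+/+), and the Dzip1 protein sits at the base of the cilium. Ages, the sexes of the mice and whether each library came from its own animal are not given in the labels, so a p-value here reflects only how far these libraries spread, which may be technical. The titles mark the Ift88 libraries as re-analyzed and give IR28N for knockout replicates 1 and 2 and wild-type replicate 1 only.

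Interferons are secreted when a cell senses foreign nucleic acid. They bind receptors that activate Janus kinases, and a complex of transcription factors then binds interferon-stimulated response elements (ISRE) before its target genes. A low tone of the same genes is kept in most tissues without infection, and macrophages and endothelial cells are among the cells that respond. Of the 9 genes, Irf7 encodes a transcription factor that amplifies interferon production, Usp18 a protease that removes Isg15 from proteins and dampens receptor signalling, and Isg15 a ubiquitin-like protein. Ifit1 and Ifit3 encode RNA-binding and scaffold proteins with tetratricopeptide repeats, Oasl2 a member of the oligoadenylate synthetase family, Rsad2 the antiviral enzyme viperin, Bst2 the membrane protein tetherin that holds virions at the cell surface, and Ifi44 a cytoplasmic protein of the antiviral response.

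The upstream sequences of these genes were read to see what they share beside their name. RefSeq promoter windows (build GRCm38.p6) were matched for 8 of the 9 genes, Usp18 being the exception. In the 250 bases before the annotated start, the core letters of the ISRE, GAAA and a second GAAA with any NN between them, on either strand, occurred in 5 of the 8 (Ifit1, Ifit3, Isg15, Rsad2 and Bst2), while 978 of all 32851 promoter windows of that length, 2.98%, held them. The sequences below run 5′ to 3′ on the strand of the gene, and capitals mark each match, merged where matches overlap. Ifit1 stands at chr19:34640639-34640888 and Ifit3 at chr19:34583279-34583528 on the forward strand, and Isg15 at chr4:156200819-156201068, Rsad2 at chr12:26456453-26456702 and Bst2 at chr8:71537473-71537722 on the reverse strand.
Ifit1: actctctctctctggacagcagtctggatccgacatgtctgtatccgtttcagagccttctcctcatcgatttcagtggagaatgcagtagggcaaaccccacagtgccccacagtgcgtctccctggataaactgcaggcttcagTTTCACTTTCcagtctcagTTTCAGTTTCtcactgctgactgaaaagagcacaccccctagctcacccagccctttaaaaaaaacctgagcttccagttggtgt
Ifit3: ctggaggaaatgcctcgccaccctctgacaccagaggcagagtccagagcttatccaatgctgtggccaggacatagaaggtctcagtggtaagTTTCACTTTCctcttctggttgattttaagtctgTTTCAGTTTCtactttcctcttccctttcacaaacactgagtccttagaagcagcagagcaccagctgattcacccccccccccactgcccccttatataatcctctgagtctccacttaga
Isg15: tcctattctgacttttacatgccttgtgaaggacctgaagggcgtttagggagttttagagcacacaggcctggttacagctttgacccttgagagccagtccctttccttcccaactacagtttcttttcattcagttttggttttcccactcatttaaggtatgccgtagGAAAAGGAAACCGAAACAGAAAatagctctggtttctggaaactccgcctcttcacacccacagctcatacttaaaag
Rsad2: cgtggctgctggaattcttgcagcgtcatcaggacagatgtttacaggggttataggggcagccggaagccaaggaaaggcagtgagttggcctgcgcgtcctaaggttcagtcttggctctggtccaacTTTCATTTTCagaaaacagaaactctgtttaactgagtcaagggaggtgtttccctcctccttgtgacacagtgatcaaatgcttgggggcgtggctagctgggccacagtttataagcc
Bst2: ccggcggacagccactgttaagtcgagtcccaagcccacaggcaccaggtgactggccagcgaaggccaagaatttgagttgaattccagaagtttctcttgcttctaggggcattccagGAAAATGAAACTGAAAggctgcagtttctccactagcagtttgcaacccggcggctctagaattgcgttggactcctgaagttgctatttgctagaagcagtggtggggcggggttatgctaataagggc

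The first matched base lay 104 and 85 bases before the start in Ifit1, 156 and 122 in Ifit3, and 78, 72 and 66 in Isg15, whose 3 matches overlap in turn. It lay 120 bases before the start in Rsad2 and 130 and 124 in Bst2, whose 2 matches overlap. Ifit1 and Ifit3 carried the same 2 ten-letter matches, TTTCACTTTC and TTTCAGTTTC. A second motif, TTCNNNGAA, the palindromic letters that Stat dimers bind, occurred in Bst2 alone of the 8 windows and in 7.02% of all windows. Among the 49 other interferon-stimulated genes of a wider list that had a promoter window, 19 held the ISRE core and 5 the Stat letters.

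Total counts ran from 23.4 to 40.3 M in the Ift88 knockout libraries and were 31.4 and 53.8 M in their wild type, and ran from 86.0 to 93.5 M in S14R/+ and 75.1 to 79.1 M in its wild type. Ift88 itself, which checks the labels of the first experiment, stood at 3.00, 3.92 and 0.409 CPM (counts in each M of library counts, scaled by TMM) in the knockout libraries, against 7.54 and 19.8 in wild type. The genotypes did not overlap, but the log2 difference of -2.48 ± 1.13 (SE) was not called by edgeR (adjusted p = 0.802). Dzip1 stood at 28.7 ± 0.721 CPM in S14R/+ and 29.9 ± 1.98 in wild type (SD, n = 3 each), and a base change is not visible in gene counts. The library labelled wild-type replicate 2 of the Ift88 experiment stood apart in content. Its 14 cardiomyocyte markers summed to 122 CPM, against 70004 in wild-type replicate 1 and 29438 to 38439 in the knockout libraries. The 12 valve interstitial markers were detected in all 11 libraries. They summed to 3017 and 7865 CPM in wild-type replicates 1 and 2, against 8520 to 12291 CPM in the knockout libraries. Wild-type replicate 1 thus had the most cardiomyocyte and the least valve interstitial signal of the Ift88 libraries. Between libraries of a group the Ift88 experiment had a biological coefficient of variation of 87.7%, the Dzip1 experiment of 7.85%. In these bulk samples fewer cells of a type and less RNA per cell cannot be told apart.

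In the Ift88 experiment none of the 9 genes separated the genotypes: 1 knockout library was high in most of them, and the other knockout libraries were at or below the wild type in several. The sum over the 9 genes was 154, 30.9 and 28.5 CPM in knockout replicates 1, 2 and 3, against 88.9 and 47.8 CPM in wild-type replicates 1 and 2. By edgeR's quasi-likelihood test 0 of the 9 passed a Benjamini-Hochberg adjusted p of 0.05 over the 14244 genes tested (adjusted p from 0.916 to 0.991), and 0 had an unadjusted p under 0.05. Over all genes the same test called 0 (0%), with 856 genes (6.01%) at an unadjusted p under 0.05. DESeq2 called 379 genes (2.39%) and limma-voom 0 (0%), with 9.59% and 6.93% at an unadjusted p under 0.05, and neither called any of the 9. Without wild-type replicate 1, edgeR called 187 genes, again none of the 9.

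The Ifit family of antiviral effectors is given first. Ifit1 (chromosome 19 of GRCm38, 34640871 to 34650009, forward strand) had 13.2, 2.08 and 0 CPM in knockout (417, 88 and 0 counts), against 0 and 1.84 CPM in wild type (0 and 106 counts). Each genotype thus held 1 library with no Ifit1 count, where the floor of 3 counts allows up to 0.123 CPM in the knockout and 0.114 CPM in the wild type. The fitted difference, 2.45 ± 2.88 on the log2 scale (SE), was smaller than its error. It was 0.12 without knockout replicate 1 and 10.31 without wild-type replicate 2, the last depending on the prior count since no wild-type count is left. Ifit3 (chromosome 19, 34583531 to 34588731, forward strand) had 12.9, 3.51 and 2.09 CPM in the knockout libraries, against 6.62 and 0 CPM in wild type. The groups overlapped, and the log2 fold change was 0.90 ± 2.18 (SE), -0.27 without knockout replicate 1.

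Ifit3 has a near-identical neighbour, Ifit3b. Of the 50-base words of the longest Ifit3 transcript in GENCODE M21, 51.2% also occur in transcripts of other genes, Ifit3b first among them, so counts between the pair are uncertain. Ifit3b, named after its values were seen, had 214, 0 and 0 counts in the knockout libraries and 0 and 0 in wild type, so all its counts came from knockout replicate 1. DESeq2 called it on that 1 library, and the filter on low counts left it out of the edgeR test. Ifit2, another gene of the family, named in the same way, had 21.4, 4.08 and 2.91 CPM in the knockout libraries, against 12.4 and 6.69 CPM in wild type, and knockout replicate 1 was again the highest.

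**Figure D1:**
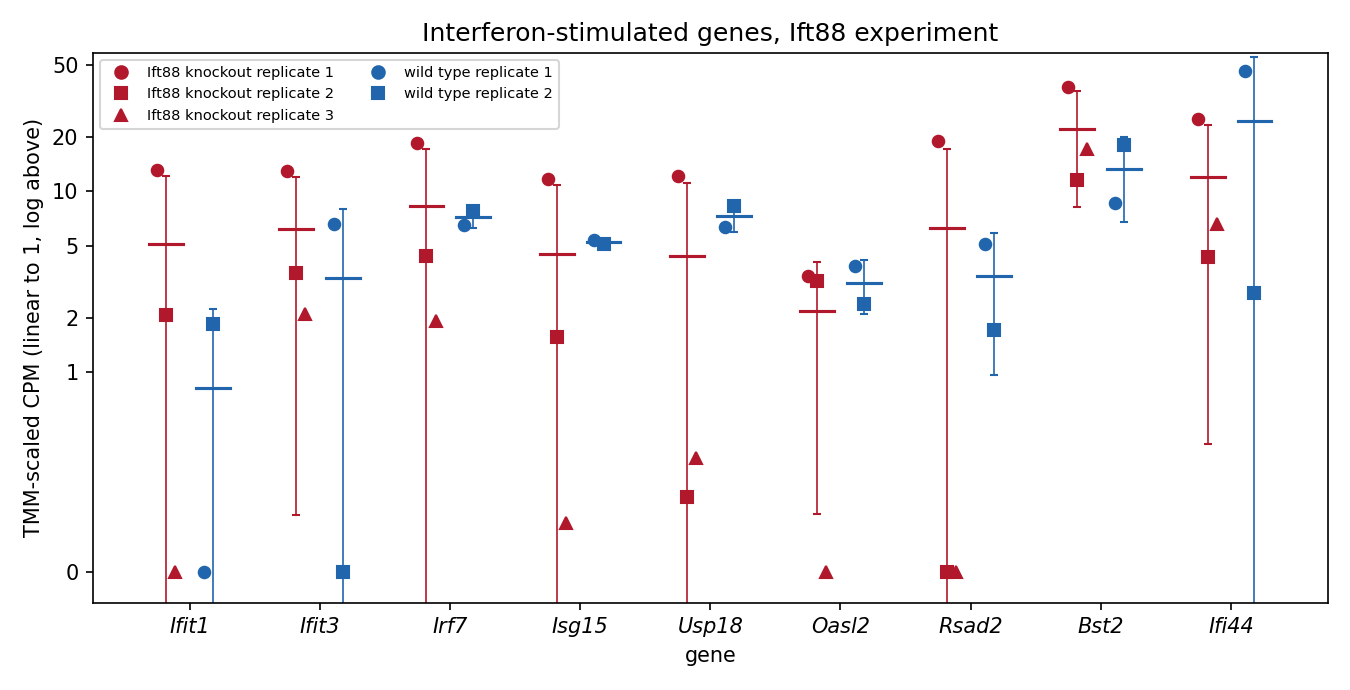
Level of each interferon-stimulated gene in the 5 libraries of the Ift88 experiment, in TMM-scaled CPM on an axis that is linear up to 1 and logarithmic above. Points are libraries (knockout red, left; wild type blue, right), horizontal bars are means and vertical bars the SD (cut off below 0). Knockout replicate 1 is the highest library in 7 of the 9 genes, and 4 genes have a library at 0.

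Among the regulators of the response, knockout replicate 1 was again the highest library. Irf7 (chromosome 7, 141262706 to 141266481, reverse strand) had 18.5, 4.41 and 1.92 CPM in the knockout libraries, against 6.55 and 7.82 CPM in wild type. The wild-type libraries lay close together, and the knockout libraries lay on both sides of them, with a log2 fold change of 0.21 ± 1.105 (SE). Its exons overlap those of Phrf1 on the other strand, and since the SMART-Seq v4 kit does not mark strand, reads over the overlap cannot be assigned to either gene. Phrf1 had 19.0, 56.9 and 28.2 CPM in the knockout libraries and 18.8 and 15.5 CPM in wild type, an order unlike that of Irf7.

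Usp18 (chromosome 6, 121245906 to 121270917, forward strand) had 12.2, 0.377 and 0.573 CPM in the knockout libraries, against 6.36 and 8.27 CPM in wild type. Of the knockout libraries, replicate 1 lay above the wild type and the other pair below it. Its log2 fold change was -0.74 ± 1.60 (SE), and -3.97 without knockout replicate 1, and its exons overlap Gm44148 on the other strand. Isg15 (chromosome 4, 156199424 to 156200818, reverse strand) had 11.8, 1.56 and 0.246 CPM in knockout (372, 66 and 6 counts), against 5.40 and 5.11 CPM in wild type (142 and 295 counts). Its wild-type libraries differed by an SD of 0.206 CPM and its knockout libraries by an SD of 6.30 CPM, around a log2 fold change of -0.22 ± 1.56 (SE), which was -2.58 without knockout replicate 1.

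Of the remaining effectors, Rsad2 (chromosome 12, 26442746 to 26456452, reverse strand) had 18.9, 0 and 0 CPM in knockout (599, 0 and 0 counts), against 5.14 and 1.70 CPM in wild type. All of its knockout counts came from replicate 1, and DESeq2 gave it no p-value. The fitted log2 fold change was 0.89 ± 2.83 (SE), and it was -10.02 without knockout replicate 1, a value that depends on the prior count since no knockout count is left. Cmpk2, a neighbouring interferon-stimulated gene named after its values were seen, had 18.2, 9.98 and 3.97 CPM in the knockout libraries and 14.2 and 11.7 CPM in wild type, so the libraries with no Rsad2 count did hold Cmpk2. Oasl2 (chromosome 5, 114896936 to 114912234, forward strand) had 3.38, 3.18 and 0 CPM in the knockout libraries, against 3.84 and 2.39 CPM in wild type, and a log2 fold change of -0.51 ± 2.00 (SE).

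Bst2 (chromosome 8, 71534255 to 71537456, reverse strand) was the member with the most counts, from 228 to 1201 per library, and had the smallest error. It had 37.9, 11.5 and 17.1 CPM in the knockout libraries, against 8.68 and 18.0 CPM in wild type, with overlapping groups and a log2 fold change of 0.73 ± 0.716 (SE), 0.065 without knockout replicate 1. Ifi44 (chromosome 3, 151730922 to 151749960, reverse strand) departed from the others. It had 25.1, 4.32 and 6.63 CPM in the knockout libraries, against 46.3 and 2.74 CPM in wild type, so wild-type replicates 1 and 2 were its highest and its lowest library. Its log2 fold change of -1.03 ± 1.24 (SE) was 2.12 without wild-type replicate 1.

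Across the 9 genes the median log2 fold change was 0.21, beside -0.01 over all genes tested, with 5 positive and 4 negative values. It was -1.22 without knockout replicate 1, and 0.31 within the libraries whose titles carry IR28N (2 knockout, 1 wild type), where the lone wild-type library is assumed to vary like the knockout. With the title prefix (IR28N or not) as a covariate the median was -0.55, and with limma-voom it was -0.36. Every gene had overlapping groups, while 13.5% of all genes tested had each knockout library above both wild-type libraries and 11.1% had each below. Knockout replicate 1 was the highest library in 7 of the 9 genes, against 12.3% of all genes tested, and wild-type replicate 1 in the other 2, Oasl2 and Ifi44, against 25.6%. Knockout replicate 3, the library with the fewest counts and the only male one by Xist and Y-linked counts, was the lowest alone in Irf7, Isg15 and Oasl2 and tied with another library at 0 in Ifit1 and Rsad2.

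Absence in a library was common among these genes. In 4 of the 9 (Ifit1, Ifit3, Oasl2 and Rsad2) 1 or more libraries held no count while another held at least 100, and this was so for 1641 of the 14244 genes tested, 11.5%. That share was not matched to the 9 for count either, so it is no measure of what genes of like count would show. The coefficient of variation over the 5 libraries ran from 59.5% in Oasl2 to 162% in Ifit1. Its median was 92.9%, beside 53.0% over all genes tested, again not matched for count. Counting error alone would give 3.85% for Bst2 and 10.2% for Oasl2, the members with the most and the fewest counts.

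**Figure D2:**
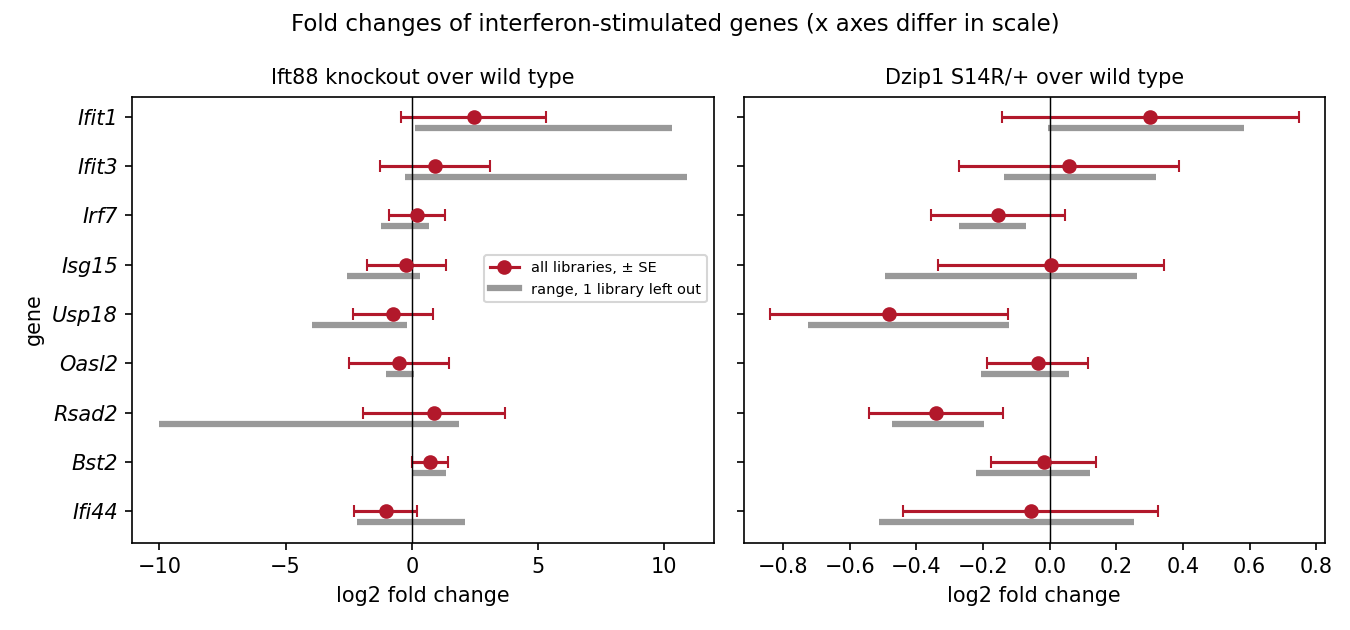
Log2 fold change of each gene in Ift88 knockout over wild type (left panel) and Dzip1 S14R/+ over wild type (right panel), with x axes of different scale. Red points are fits on all libraries with the SE, and grey bars span the fits that leave out 1 library. The grey bars reach from -10.02 (Rsad2) to 10.92 (Ifit3) on the left, where the group with the library left out has no count, and from -0.73 to 0.58 on the right.

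Markers of other cell types were set beside these levels. The 23 macrophage and leukocyte markers summed to 457, 263 and 461 CPM in knockout replicates 1, 2 and 3, against 265 and 579 CPM in wild-type replicates 1 and 2, with 5 to 7 of them at 0 per library and Itgax and Nkg7 among those at 0 in all 5. Members of that list went opposite ways: Ptprc, which all leukocytes carry, stood at 5.72, 3.18 and 0 CPM in knockout replicates 1, 2 and 3, against 0.0381 and 3.54 CPM in wild-type replicates 1 and 2. Csf1r, the receptor that macrophages depend on, stood at 39.5, 30.2 and 65.5 CPM in the knockout, against 12.1 and 33.2 CPM in wild type. The 12 endothelial markers summed to 1966, 2761 and 2099 CPM in the knockout libraries and 491 and 3370 CPM in wild type, with Erg at 0 in 1 library. The red cell and platelet markers summed to 31.5 to 108 CPM in the knockout and 123 and 236 CPM in wild type, with the 4 globin genes of the list at 0 in all 5 libraries. The part of these cells in the levels of the 9 genes was not tested.

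**Figure D3:**
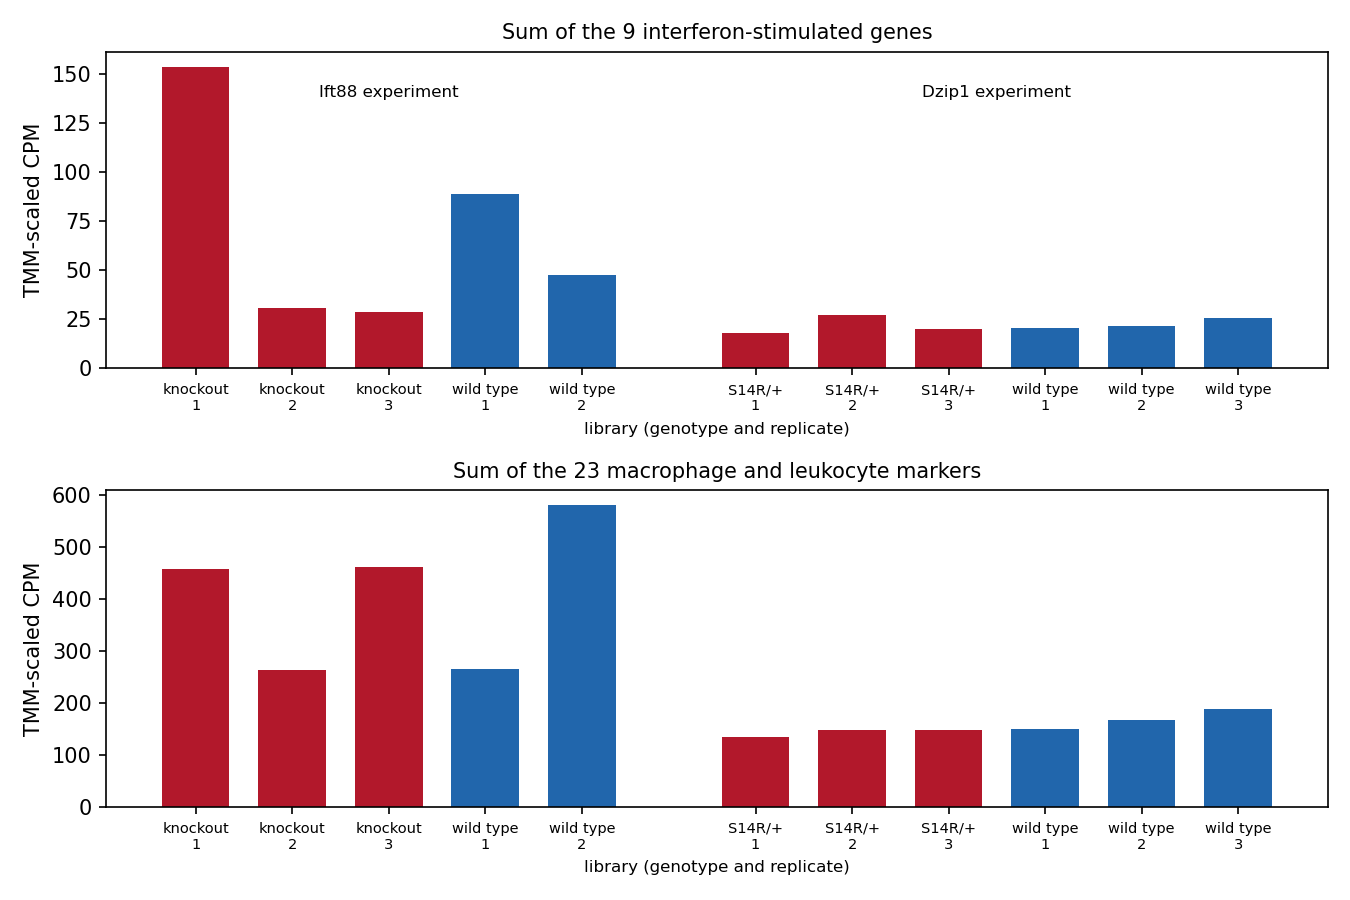
Sum of the 9 interferon-stimulated genes (top) and of 23 macrophage and leukocyte markers (bottom) in each library, in TMM-scaled CPM, with mutant libraries in red left of their wild type in blue. Levels of the separate experiments come from separately made tables. Knockout replicate 1 has the highest sum of the 9 genes, 154 CPM, and wild-type replicate 2 of the Ift88 experiment the highest sum of leukocyte markers, 579 CPM.

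In the Dzip1 experiment again none of the 9 genes separated the genotypes. Their sum was 17.8, 27.0 and 20.1 CPM in S14R/+ replicates 1, 2 and 3, against 20.7, 21.4 and 25.4 CPM in wild-type replicates 1, 2 and 3. edgeR's quasi-likelihood test called 0 of the 9 (adjusted p from 0.843 to 0.999) and 0 (0%) of the 16160 genes tested, with 0 of the 9 and 959 of all genes (5.93%) at an unadjusted p under 0.05. DESeq2 and limma-voom also called 0, with 987 (4.7%) and 917 (5.67%) genes at an unadjusted p under 0.05. Leaving out S14R/+ replicate 2, wild-type replicate 1 or wild-type replicate 2 gave 1, 2 and 10 calls over all genes, and 0 among the 9.

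Bst2 was the highest of the 9 genes here. It had 10.5, 15.7 and 11.2 CPM in S14R/+, against 10.9, 12.0 and 15.0 CPM in wild type, with a log2 fold change of -0.02 ± 0.156 (SE). Each genotype held 1 high library and a lower pair, and the ranges overlapped. Oasl2 had 3.12, 4.43 and 3.33 CPM in S14R/+, against 3.55, 3.50 and 4.12 CPM in wild type, with a log2 fold change of -0.04 ± 0.152 (SE), and the same S14R/+ and wild-type libraries were its highest. Isg15 had 0.699, 1.84 and 0.948 CPM in S14R/+, from 60, 166 and 88 counts, against 0.924, 1.16 and 1.40 CPM in wild type, from 73, 91 and 107 counts. Its means were 1.163 ± 0.601 CPM in S14R/+ and 1.162 ± 0.238 CPM in wild type (SD, n = 3 each), a log2 fold change of 0.0035 ± 0.340 (SE).

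The regulators Irf7 and Usp18 were lower on average in S14R/+, by less than the SD of wild type but by more than that of S14R/+. Irf7 had 1.09, 1.19 and 1.02 CPM in S14R/+, against 1.37, 1.02 and 1.30 CPM in wild type, with a log2 fold change of -0.16 ± 0.201 (SE). Phrf1, which overlaps it on the other strand, had 117, 111 and 117 CPM in S14R/+, against 122, 115 and 120 CPM in wild type. Reads over that overlap cannot be assigned to either gene, so the low level of Irf7 here is uncertain. Usp18 had 0.431, 0.322 and 0.334 CPM in S14R/+, from 37, 29 and 31 counts, against 0.469, 0.319 and 0.733 CPM in wild type, from 37, 25 and 56 counts. Its log2 fold change of -0.48 ± 0.357 (SE) was the lowest of the 9 and was -0.12 without wild-type replicate 3, the library with 56 counts.

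Rsad2 had 1.23, 1.68 and 1.80 CPM in S14R/+, against 2.14, 2.22 and 1.61 CPM in wild type, with a log2 fold change of -0.34 ± 0.202 (SE, unadjusted p = 0.123 in edgeR, the smallest of the 9, adjusted p = 0.843). Without wild-type replicate 3, the only wild-type library inside the S14R/+ range, the fold change was -0.47. Ifit1 had 0.175, 0.400 and 0.313 CPM in S14R/+, from 15, 36 and 29 counts, against 0.127, 0.268 and 0.327 CPM in wild type, from 10, 21 and 25 counts. At these counts the 95% counting interval (exact Poisson, counting error only) of the lowest library ran from 0.0607 to 0.233 CPM and that of the highest from 0.280 to 0.553. The log2 fold changes of Ifit1 and Ifit3 were 0.30 ± 0.445 and 0.06 ± 0.330 (SE). Ifit3 had 0.338, 0.655 and 0.711 CPM in S14R/+, against 0.658, 0.460 and 0.523 CPM in wild type, and Ifit3b had 5, 22 and 12 counts in S14R/+, against 16, 6 and 13 counts in wild type. Ifi44 had 0.268, 0.810 and 0.496 CPM in S14R/+, against 0.646, 0.511 and 0.484 CPM in wild type, with a log2 fold change of -0.06 ± 0.383 (SE), and S14R/+ held both its highest and its lowest library.

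**Figure D4:**
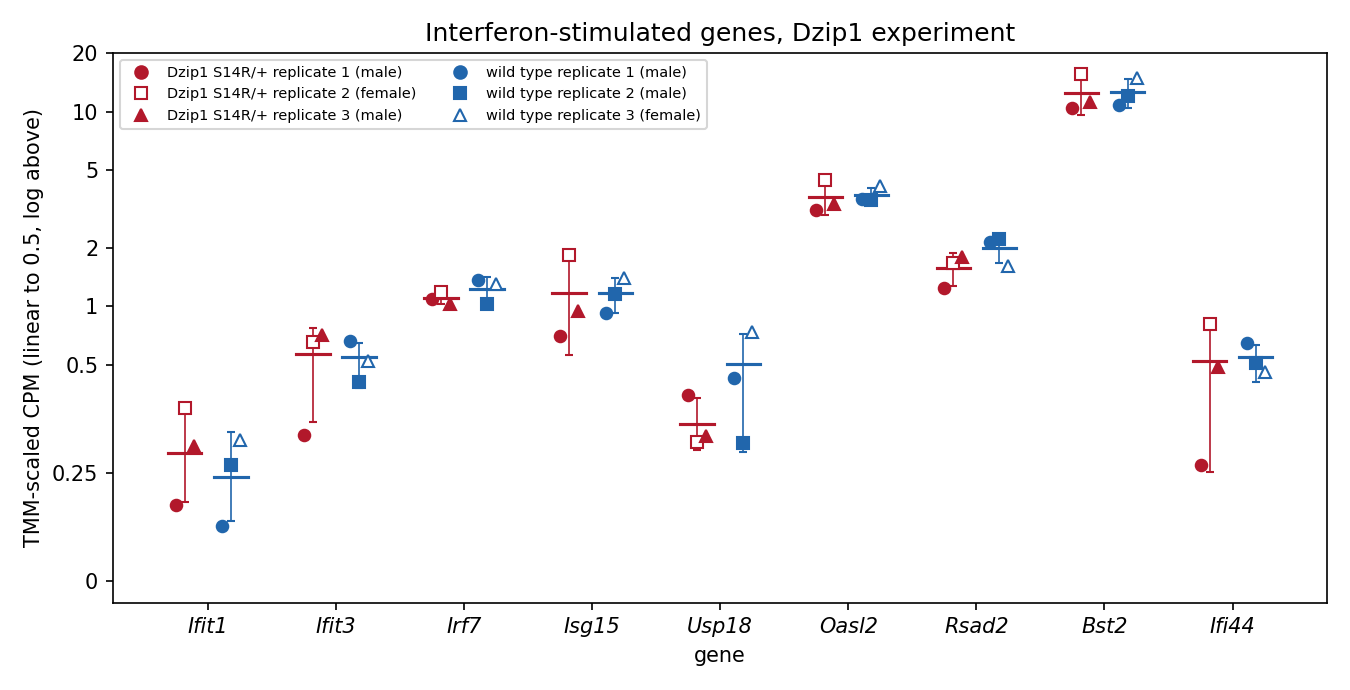
Level of each interferon-stimulated gene in the 6 libraries of the Dzip1 experiment, in TMM-scaled CPM on an axis that is linear up to 0.5 and logarithmic above. Points are libraries (S14R/+ red, left; wild type blue, right; open symbols female by Xist counts), horizontal bars are means and vertical bars the SD. The groups overlap in all 9 genes, and the 2 open symbols are the highest points of Bst2, Oasl2, Isg15 and Ifit1.

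The median log2 fold change of the 9 genes was -0.04, beside -0.00033 over all genes tested, with 3 positive and 6 negative values, and it was -0.22 without S14R/+ replicate 2. All 9 had overlapping groups, while 5.27% of all genes tested had every S14R/+ library above every wild-type library and 5.01% had every one below. S14R/+ replicate 2 was the highest library in 5 of the 9 genes (Ifit1, Isg15, Oasl2, Bst2 and Ifi44), against 14.3% of all genes tested, and S14R/+ replicate 1 the lowest in 6 of the 9, against 12.6%. The coefficient of variation over the 6 libraries had a median of 25.7% among the 9 genes and 6.06% over all genes tested. All genes tested were not matched to the 9 for count, so part of this gap can be counting error. For Bst2 the coefficient was 17.9%, where counting error alone would give 3.09%, and for Ifit1 37.8%, where it would give 21.0%. For Irf7 it was 12.4%, where counting error would give 10.1%. The 23 macrophage and leukocyte markers summed to 135, 149 and 148 CPM in S14R/+, against 151, 168 and 189 CPM in wild type, with 7 of the 18 tested at an unadjusted p under 0.05, all lower in S14R/+, and 0 past the threshold in edgeR. Of the other lists, 6 of the 10 red cell and platelet markers tested were lower at an unadjusted p under 0.05 in edgeR. So were 5 of the 12 valve interstitial markers, while 5.93% of all genes tested had such a p in either direction. The median log2 fold changes of these lists were -0.78 and -0.06, beside -0.32 for the leukocyte list. The cardiomyocyte list went the other way, with 12 of 14 fold changes positive and a median of 0.098. The endothelial list had 5 of 12 positive and a median of -0.0094. In each of the cardiomyocyte and endothelial lists 1 gene was higher and 0 lower at an unadjusted p under 0.05 in edgeR. None of these markers passed the threshold. Of the leukocyte list Cd3e was among those at 0 in all 6 libraries, 2 to 4 were at 0 per library, and the part of these cells in the 9 genes was not tested.

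In the Dzip1 experiment several of the 9 genes were highest in the female libraries, which was noticed after the values were seen. By Xist and Y-linked counts, S14R/+ replicate 2 and wild-type replicate 3 were female and the other 4 libraries male. Bst2 had 15.7 and 15.0 CPM in the female S14R/+ and wild-type libraries, against 10.5 to 12.0 CPM in the 4 male libraries. Oasl2 had 4.43 and 4.12 CPM in the females, against 3.12 to 3.55 CPM in the males, and Isg15 1.84 and 1.40 CPM, against 0.699 to 1.16 CPM. Ifit1 had 0.400 and 0.327 CPM in the females, against 0.127 to 0.313 CPM in the males. In these 4 of the 9 genes both females lay above all males, while 6.11% of all genes tested did so.

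In an edgeR fit with genotype and sex the female over male log2 fold change was 0.46 ± 0.0747 (SE) for Bst2 (unadjusted p = 0.00017, adjusted p = 0.228), 0.34 ± 0.123 for Oasl2 and 0.81 ± 0.254 for Isg15 (adjusted p = 0.958 for both). It was positive in 8 of the 9 genes, Rsad2 being the exception, with a median of 0.37 beside -0.00068 over all genes. Not every positive value was shared by both females. The female was the highest S14R/+ library in 6 of the 9 genes and the highest wild-type library in 5, beside 35.9% and 32.2% of all genes. In Usp18 the female S14R/+ library, at 0.322 CPM, was the lowest of its genotype. So was the female wild-type library in Ifi44, at 0.484 CPM. None of the 9 passed the threshold. The 7 genes that did (0.0433% of those tested) were the Y-linked Uty, Ddx3y, Kdm5d and Eif2s3y and the X-linked Kdm6a, Eif2s3x and Kdm5c. With 1 female library per genotype, sex cannot be told apart from other traits that these 2 libraries share. In the Ift88 experiment knockout replicate 3 was the only male library, so sex and that library cannot be told apart there.

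Per kilobase of exon, the order of the 9 levels was led by the same genes in both experiments. In the Ift88 experiment the median level was 18.9 CPM per kb for Bst2 and 6.76 for Isg15, then 2.28 for Usp18, 2.01 for Ifit3, 1.73 for Irf7, 1.08 for Ifi44, 0.692 for Ifit1, 0.4996 for Oasl2 and 0.392 for Rsad2. The ranges of all neighbours in that order overlapped, from 0.325 to 15.5 CPM per kb for Isg15 and from 9.61 to 42.0 for Bst2. In the Dzip1 experiment the medians were 12.8 CPM per kb for Bst2 and 1.40 for Isg15, then 0.552 for Oasl2, 0.401 for Rsad2, 0.338 for Ifit3, 0.302 for Irf7, 0.137 for Usp18, 0.109 for Ifit1 and 0.0821 for Ifi44. There Bst2 and Isg15 each lay above the next gene in every library, with lowest values of 11.6 and 0.924 CPM per kb, while the ranges from Oasl2 to Irf7 overlapped from one gene to the next, as did those of Usp18, Ifit1 and Ifi44. The tables were made and scaled apart, so levels were not tested between the experiments.

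The rest of the pathway was read from 8 lists of 164 genes in all. In the Ift88 experiment edgeR called 0 of the 128 that were tested, in either direction (6 at an unadjusted p under 0.05, 4.69%, beside 6.01% of all genes tested). DESeq2 called 3 of the 164, Eif2ak2, Gbp5 and Ifit3b, beside 2.39% of all genes, so neither count is a result about the pathway. In the Dzip1 experiment edgeR called 0 of 134 (8 at an unadjusted p under 0.05, 5.97%, beside 5.93% of all genes tested) and DESeq2 0. Interferon ligands were at the floor: of 16 ligand genes, 14 had no count in any Ift88 library and 12 none in any Dzip1 library. The most counts for any ligand in a library were 10, of Ifnz in Ift88 knockout replicate 1, and Ifnb1 had 1 count, in Ift88 wild-type replicate 1.

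Among the sensors and adaptors of the Ift88 experiment, Ddx58, which encodes the RNA sensor RIG-I, had 19.7, 18.2 and 7.94 CPM in the knockout libraries, against 5.21 and 5.74 CPM in wild type (log2 fold change 1.48 ± 0.719 SE, adjusted p = 0.802 in edgeR). Its groups did not overlap, and it was the 1 gene of the 15 tested in that list with every knockout library above the wild type. The adaptor Myd88 was the 1 gene with every knockout library below, at 24.9 ± 6.27 CPM in knockout (SD, n = 3) and 42.7 ± 10.9 in wild type (SD, n = 2). Over all genes tested, 13.5% had each knockout library above both wild-type libraries and 11.1% had each below, so neither count is a result about the list. Irf8, a transcription factor of myeloid cells, belongs to another list, the kinases and interferon regulatory factors. It stood at 8.19 ± 1.88 CPM in knockout and 16.7 ± 5.24 in wild type (SD). Its log2 fold change was -1.03 ± 0.619 (SE, adjusted p = 0.851 in edgeR).

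Of 52 other interferon-stimulated genes tested in the Ift88 experiment, 25 had a positive fold change, the median was -0.03, and 7 had every knockout library above the wild type and 3 every one below, where all genes tested had 13.5% above and 11.1% below. Eif2ak2, which encodes the RNA-dependent kinase PKR, had 11.2, 22.2 and 5.12 CPM in the knockout libraries, against 0.0761 and 0.901 CPM in wild type. Its log2 fold change was 4.68 ± 1.46 (SE), not past the threshold in edgeR (adjusted p = 0.802) and past it in DESeq2 (adjusted p = 0.00838). Slfn5 and Samd9l stood at 29.0 ± 9.24 and 18.1 ± 5.83 CPM in knockout (SD, n = 3) and 9.12 ± 2.94 and 5.27 ± 0.950 CPM in wild type (SD, n = 2), and neither passed in either tool. Of 14 guanylate-binding proteins and immunity-related GTPases, defence proteins induced mainly by interferon gamma, 5 had every knockout library above the wild type and 0 every one below (13.5% and 11.1% of all genes tested), with a median of 0.48. Gbp5 of that list had 3.44, 1.18 and 5.28 CPM in the knockout libraries, against 0.0381 and 0 CPM in wild type, which held 1 count together (adjusted p = 0.802 in edgeR and 0.00342 in DESeq2). Of 14 class I antigen presentation genes, 1 lay above and 1 below without overlap, and Psme2, a proteasome activator subunit, stood at 164 ± 29.1 CPM in knockout and 238 ± 38.0 in wild type. Among the inhibitors, Ptpn11, a phosphatase, stood at 76.2 ± 29.5 CPM in knockout and 27.3 ± 8.49 CPM in wild type, with an adjusted p of 0.802 in edgeR.

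In the Dzip1 experiment none of the named pathway genes passed the threshold. Mavs, the mitochondrial adaptor of RNA sensing, had 36.7, 35.6 and 35.9 CPM in S14R/+, against 33.2, 33.9 and 31.5 CPM in wild type, with a log2 fold change of 0.13 ± 0.0482 (SE, adjusted p = 0.822 in edgeR). Aim2, a sensor of cytosolic DNA, had 3.45, 3.35 and 3.47 CPM in S14R/+, against 4.10, 4.10 and 3.99 CPM in wild type. Both had groups that did not overlap, and neither passed the threshold. Over all genes tested, 5.27% had every S14R/+ library above every wild-type library and 5.01% had every one below. Mavs and Aim2 were named for the smallest p of their list, which favours groups without overlap. H2-T23, a class I molecule, stood at 2.17 ± 0.278 CPM in S14R/+ and 3.06 ± 0.350 in wild type, a log2 fold change of -0.49 ± 0.153 (SE), and Iigp1, an immunity-related GTPase, at 15.8 ± 2.92 CPM in S14R/+ and 20.9 ± 2.31 CPM in wild type, with overlapping libraries (SD, n = 3 each). Socs3, an inhibitor of cytokine receptors, stood at 6.31 ± 1.41 CPM in S14R/+ and 10.1 ± 4.13 CPM in wild type, and Ube2l6, the enzyme that passes Isg15 to its targets, at 26.9 ± 2.49 CPM in S14R/+ and 32.6 ± 5.08 CPM in wild type. Adjusted p in edgeR was 0.822 or 0.828 for these 4 genes. Of the 55 other interferon-stimulated genes tested here, 23 had a positive fold change and the median was -0.02.

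The genes most like the 9 in pattern were sought among 11593 genes with a mean count of at least 50 in both tables, by the mean of Pearson's r to the average profile over the 5 Ift88 libraries and over the 6 Dzip1 libraries, which share library depth and content. They were Adora2a, which encodes an adenosine receptor (mean r 0.917), Gbp9, a guanylate-binding protein (0.905), and Fam126b (0.884). Adora2a had 6.41, 0 and 0.450 CPM in the Ift88 knockout libraries, against 3.08 and 0.381 CPM in wild type, and 10.1, 11.7 and 10.5 CPM in S14R/+, against 11.1, 11.2 and 11.7 CPM in its wild type. Gbp9 had 34.1, 10.1 and 11.3 CPM in the Ift88 knockout libraries, against 12.7 and 16.5 CPM in wild type, and 9.84, 11.9 and 10.5 CPM in S14R/+, against 10.3, 10.5 and 11.6 CPM in its wild type. With so few libraries and so many genes, such values are a description of these libraries.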

How the data were processed

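RNA of mouse mitral leaflets was sequenced in 11 libraries made with the SMART-Seq v4 kit, per the labels' protocols. Each experiment has a table of raw counts per gene symbol, as deposited by the authors. The submitters' processing notes name cutadapt 1.11, FastQC 0.11.5, HTSeq, DESeq and DESeq2, and the build mm10 (GRCm38). The aligner, annotation and strand setting were not given in the sources used here. Deposited fold changes and p-values were left aside.

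Samples were grouped by the genotype label, and each table was fitted apart with edgeR 4.0.16 in R 4.3.3 (TMM, filterByExpr defaults, quasi-likelihood F test, Benjamini-Hochberg over all genes tested, threshold 0.05). Standard errors are the fold change over the root of F. DESeq2 1.42.0 and limma-voom 3.58.1 are alternatives. The edgeR fit alone was also run on simulated counts. The outcome is not reported here, so the power of these comparisons is not stated. Of 164 pathway genes, older symbols were matched through RefSeq synonyms. Exon lengths are unions of GENCODE M21 exons, on GRCm38. Depth, with counts of 23.4 to 93.5 M per library, limits the members with under 100 counts, and intervals and floors cover counting error only. No libraries were copies of each other: their counts differed by at least 11.1 in chi-squared over its degrees of freedom.

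Named are all members, Ift88 and Dzip1, up to 3 genes of each pathway list with the smallest p and a mean count of at least 50, and the 3 genes of most similar pattern; some of these are not reported here. The members and lists were chosen with earlier results of these data known.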

Additional observations from a re-analysis of the deposited data

How the results depend on the processing

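The call on the 9 genes, 0 past the threshold, held in every fit run. Over these fits the fold changes of the 9 kept their sign in 128 of 144 values for Ift88 (smallest adjusted p 0.164) and in 121 of 140 for Dzip1 (smallest 0.347). These values include the main fit read at an adjusted p of 0.1, whose fold changes could not change sign. For Ift88 the fit with sex as a covariate nearly repeats the fit without knockout replicate 3, the only male library (Ifit1 3.04 in both). DESeq2 called 379 genes in the Ift88 experiment, 3 of them pathway genes, where edgeR called 0. Leaving out 1 library gave 0 to 187 calls for Ift88 (187 without wild-type replicate 1) and 0 to 10 for Dzip1 (10 without wild-type replicate 2), and the male libraries alone, chosen after seeing the data, gave 1. The median log2 fold change of the 9 then ran from -1.22 to 0.67 for Ift88 and from -0.22 to 0.090 for Dzip1. In the same fits the Ift88 values ran from -0.27 to 10.92 for Ifit3, -1.22 to 0.67 for Irf7, -2.58 to 0.34 for Isg15, 0.12 to 10.31 for Ifit1, -3.97 to -0.20 for Usp18, 0.065 to 1.35 for Bst2, -1.01 to 0.076 for Oasl2, -10.02 to 1.89 for Rsad2 and -2.19 to 2.12 for Ifi44. The Dzip1 values ran from -0.0050 to 0.58 for Ifit1, -0.14 to 0.32 for Ifit3, -0.49 to 0.26 for Isg15, -0.21 to 0.059 for Oasl2, -0.22 to 0.12 for Bst2 and -0.51 to 0.25 for Ifi44. Other sign changes in the Ift88 experiment were Irf7 -0.36, Rsad2 -3.93 and Ifi44 0.17 with limma-voom, Isg15 0.34 and Oasl2 0.075 with sex as a covariate, Isg15 0.30 in the IR28N libraries, and Irf7 -0.47 and Rsad2 -2.22 with the title prefix as a covariate. In the Dzip1 experiment they were Isg15 -0.010 with library size alone, -0.090 with limma-voom, -0.077 with sex as a covariate and -0.34 in male libraries, and Ifit3 -0.086 in male libraries. The cause was not tested. A mean count of at least 50 leaves Ifit1, Ifit3, Usp18 and Ifi44 out of the Dzip1 fit. A fit left with 1 wild-type library assumes that it varies like the knockout. No paired analysis was possible from the titles. The final numbers of knockout and wild type share 1 value (9, under different prefixes), and those of S14R/+ and wild type share none. The number before the final one is the same in all Dzip1 titles and so marks no pairs. The title prefix fit above blocks on IR28N or not, and the replicate numbers used here follow accession order.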
